A study of Mus musculus with 12 samples.

Results

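The gonadal white fat of male mice lacking both Gadd45a and Ing1 was compared with that of mice lacking Ing1 alone, on the 3 arrays labelled DKO and the 3 arrays labelled Ing1-KO, chosen by these labels from 12 arrays in all. Both groups carry the Ing1 deficiency, so the pair asks what the loss of Gadd45a does in fat that already lacks Ing1. The other 6 arrays, 3 of wild-type mice (WT) and 3 of mice lacking Gadd45a alone (Gadd45a-KO), served to estimate the spread and for a side-by-side view of the same loss in the presence of Ing1. The double mutants are Gadd45a-/-;Ing1-/- and were bred, like the single mutants and the wild types, by crossing 2 published deficient lines. All mice are labelled C57BL/6N and were 59 to 67 days old, and the labels name no treatment. Each array holds pooled total RNA of 3 animals out of 9 per genotype, so the spread between arrays is a spread between pools and does not show single mice. The labels name neither the deleted part of either gene nor the strain in which the alleles were made.

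Gadd45a encodes a small stress-induced protein that binds MAP kinase kinases, cell cycle kinases and DNA repair factors and takes part in active DNA demethylation. Ing1 encodes a reader of trimethylated histone H3 at active promoters, and is known to bring Gadd45a to such sites for demethylation. Gonadal white fat stores triglyceride in adipocytes, which PPARγ and the C/EBP factors maintain, and also holds vessels, fibroblasts, a mesothelial cover and immune cells.

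Of the 59305 spots of an array, between 58.5% and 67.4% were well above background on the 6 arrays compared, with a median processed signal of 48.5 to 68.8. With 3 arrays a group, their number sets the precision. The defining transcripts of fat were present on all 6, with Adipoq, which encodes adiponectin, at a normalized log2 signal of 16.89 to 17.72 and Plin1, the lipid droplet coat protein, at 15.36 to 15.94. Replicate numbers are also slide numbers, so each slide held 1 array of each genotype, and differences within a slide are given where they matter. The arrays Ing1-KO 1 and DKO 1 stood apart by skeletal muscle transcripts. The muscle creatine kinase Ckm was well above background on these 2 arrays, at 9.19 and 6.21, and on none of the other 4. The array DKO 2 stood apart by low lymphocyte transcripts, given below. Results that rest on these arrays are given with and without them. The arrays did not sort cleanly by genotype. In correlations between arrays, DKO 3 reached at most -0.03 with its own group and 0.27 with another group. Ing1-KO 1 reached -0.15 and 0.39, and Ing1-KO 3 reached 0.21 and 0.27. The arrays Ing1-KO 2, DKO 1 and DKO 2 were closest to their own group.

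Levels are normalized log2 signals throughout. A difference is the mean of the DKO arrays less the mean of the Ing1-KO arrays on that scale, given ± the standard error of a limma model fitted to all 12 arrays, and a p is adjusted by Benjamini-Hochberg over the 31453 genes and unnamed probes tested, with a threshold of 0.05.

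Gadd45a itself was the 1 gene that passed. Its probe gave 9.30, 9.25 and 9.06 on the Ing1-KO arrays (9.20 ± 0.12, SD, n = 3) and 10.60, 10.62 and 10.61 on the DKO arrays (10.61 ± 0.0086, SD, n = 3). The signal was therefore higher in the arrays labelled as lacking Gadd45a, with no overlap. The difference was 1.41 ± 0.13, which is 2.66-fold (limma, adjusted p = 0.00618), and on the 3 slides it was 1.31, 1.37 and 1.55. The same probe gave 9.33, 9.80 and 9.41 on the WT arrays and 10.27, 10.19 and 10.05 on the Gadd45a-KO arrays, again higher under the label of the mutant, by 0.66 ± 0.13, which did not pass (adjusted p = 1.00). Whether the probe falls inside or outside the deletion is not known here, so its signal is no check of the labels, and every direction below rests on them. The call was lost with only the 6 arrays compared in the model (adjusted p = 0.0587), without Ing1-KO replicate 2 (0.0613), Ing1-KO replicate 3 (0.0753) or DKO replicate 2 (0.0546), and without the 2 arrays high in muscle (0.154). It was also lost with the array's column on the slide as a block, with a difference of 1.30 and an adjusted p of 0.412, and with slide and array row together as blocks (0.0632).

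The sequence just upstream of Gadd45a is shown because its transcript is the one that differed past the threshold. It spans chr6:67037408-67037657 of GRCm38.p6 on the minus strand, 250 bases that end at the base before the annotated start, taken from RefSeq and printed 5′ to 3′ along the gene. Capitals mark a CCAAT box and both matches to the octamer ATGCAAAT, on either strand, which do not overlap.
Gadd45a upstream: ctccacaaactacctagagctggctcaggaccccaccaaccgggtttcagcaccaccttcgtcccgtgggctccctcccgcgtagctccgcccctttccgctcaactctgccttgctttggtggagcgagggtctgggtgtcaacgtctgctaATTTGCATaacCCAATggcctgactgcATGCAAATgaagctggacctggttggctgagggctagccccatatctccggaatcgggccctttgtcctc
Such octamers occur in 1.61% of 27025 mouse upstream windows of this length and CCAAT in 34.5%, on either strand in both cases, while TATAA, present in 23.5%, is not found in this one. In human cells OCT1 and NF-Y, which bind these 2 kinds of motif, are known to act at the GADD45A promoter. A match is a description of the letters, and the arrays do not measure binding.

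Ing1 was low on all 6 arrays, as both labels state. Its brightest probe gave 9.28, 9.54 and 9.37 on the Ing1-KO arrays and 9.13, 9.23 and 9.60 on the DKO arrays, against a mean of 12.46 ± 0.03 (SD, n = 3) in WT. The third probe was not well above background on any of the 6 arrays. Between the groups compared the 3 probes differed by -0.08, 0.23 and -0.17, each less than its spread.

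**Figure D1:**
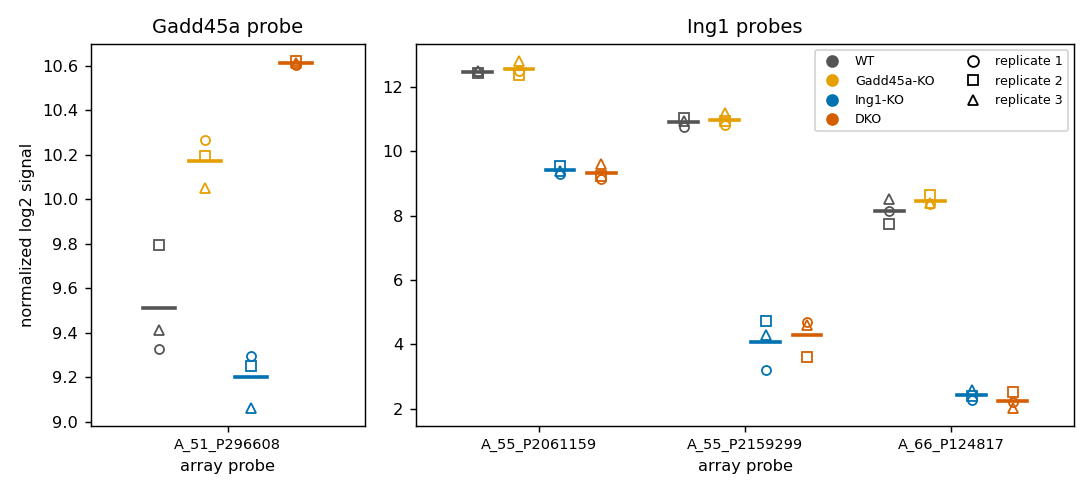
Normalized log2 signal of the Gadd45a probe (left) and of the 3 Ing1 probes (right, another axis range), 1 point per array with the shape giving the replicate, and a bar at each genotype mean. The 3 DKO points of Gadd45a lie on each other at 10.61, above the Ing1-KO points at 9.06 to 9.30, and all 3 Ing1 probes are low in Ing1-KO and DKO alike.

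The relatives of both genes did not pass. Gadd45g, a stress-induced paralog, gave 12.39, 12.72 and 12.57 on the Ing1-KO arrays and 13.48, 13.35 and 12.77 on the DKO arrays, a difference of 0.64 ± 0.22 with no overlap. Gadd45b, the other paralog, gave 11.04, 11.51 and 11.53 against 10.91, 10.65 and 11.30, a difference of -0.41 ± 0.19 with overlapping groups. The readers Ing3, Ing4 and Ing5, which sit in histone acetyltransferase complexes, differed by 0.09, 0.08 and -0.09. Ing2, which like Ing1 belongs to the Sin3 deacetylase complex, gave 7.91, 7.96 and 7.92 against 7.70, 7.53 and 7.90, a difference of -0.22 ± 0.16 in which the groups just did not meet.

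Across all features the groups were close. The 1 gene called is 0.00318% of those tested, none was called lower, and the next smallest adjusted p was 0.394. At an unadjusted p under 0.05 stood 1103 features (3.51%), of which 449 were higher in DKO (1.43%) and 654 lower (2.08%). The arrays of the groups did not overlap for 2797 features (8.89%), with 1617 higher (5.14%) and 1180 lower (3.75%). The median size of the difference was 0.15, below the median standard error of 0.21, and 200 features were at least 2-fold higher and 230 at least 2-fold lower. With 3 arrays against 3, an exact permutation test of a single gene cannot go below a p of 0.1, so the calls depend on the spread shared across genes.

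After Gadd45a, the 9 named genes with the smallest p in the higher direction had an adjusted p of 0.948 and are given as values that did not pass. Hmgcs1, which makes hydroxymethylglutaryl-CoA for cholesterol synthesis, gave 13.76, 13.74 and 13.56 on the Ing1-KO arrays and 14.64, 14.68 and 14.26 on the DKO arrays, a difference of 0.84 ± 0.21. G0s2, the inhibitor of the lipase that opens triglyceride breakdown, gave 12.58, 12.56 and 12.93 against 13.70, 13.40 and 13.02, a difference of 0.69 ± 0.18. For Hmgcs1 the gap between the groups was wide on every slide, whereas DKO replicate 3 brought G0s2 to within a small step of the Ing1-KO arrays. Agpat5, an acyltransferase of phospholipid and triglyceride synthesis, gave 10.34, 10.22 and 10.31 against 10.66, 10.62 and 10.74, a difference of only 0.38 ± 0.09 with a small spread. Lgr5, a receptor for R-spondins that marks stem cells in the gut, gave 5.05, 3.38 and 3.96 against 6.48, 5.11 and 6.75, at 1.98 ± 0.48 the widest difference of the 10 and near background on the Ing1-KO arrays. Mfap4, a microfibril protein of the matrix, gave 7.61, 7.81 and 7.88 against 9.45, 9.01 and 8.24, a difference of 1.13 ± 0.25. In Lgr5 the lowest DKO array lay just above the highest Ing1-KO array, and in Mfap4 the DKO arrays spread far more than the Ing1-KO arrays did. The remaining 4 were Cd207 at 1.13 ± 0.26, the lectin langerin of Langerhans-type dendritic cells; Tti2 at 0.84 ± 0.18, a subunit of the complex that stabilizes DNA damage kinases; Pdgfrl at 0.99 ± 0.25, a receptor-like relative of the PDGF receptors; and Dtx2 at 0.56 ± 0.14, a Deltex ubiquitin ligase of Notch signalling.

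Among the named genes in the lower direction the smallest p was that of Sycp1, a protein of the synaptonemal complex of meiosis. It gave 4.87, 5.87 and 5.27 on the Ing1-KO arrays and 3.17, 2.48 and 2.03 on the DKO arrays, where it was not well above background on any, so it was at least 2.27-fold lower (adjusted p = 0.485). The WT and Gadd45a-KO arrays, with means of 2.15 and 1.84, were as dim as the DKO arrays, so that the Ing1-KO arrays are the ones that differ from the other 3 genotypes. The bound sets the Ing1-KO mean against the lowest signal called above background on each DKO array, or the probe's own where that is higher. Itgb1bp2, the muscle protein melusin, gave 5.12, 6.43 and 4.42 against 4.30, 2.23 and 3.24, and was above background on all 3 Ing1-KO arrays and on 1 of 3 DKO arrays. Its fitted difference of -2.06 ± 0.58 therefore rests partly on background signal and does not give the size. Tspan10, a tetraspanin that guides the protease ADAM10, gave 7.33, 7.89 and 7.63 against 6.58, 5.93 and 6.91, a difference of -1.14 ± 0.23. Csmd1, a complement regulator, gave 6.88, 6.65 and 6.81 against 5.96, 5.47 and 6.33, a difference of -0.86 ± 0.22. In Tspan10 and Csmd1 alike DKO replicate 2 was the lowest array and DKO replicate 3 the closest to the Ing1-KO arrays. Ccl12, a chemokine that draws monocytes, gave 9.30, 9.51 and 9.71 against 8.85, 8.83 and 9.28, a difference of -0.52 ± 0.15 with a narrow gap. Hcn3, a pacemaker-type channel, Tnn, a tenascin of the matrix, and Slc15a2, a transporter of small peptides, differed by -1.29 ± 0.36, -1.14 ± 0.32 and -1.02 ± 0.27. In 2 genes the probes did not act alike: Herc6, the ligase that attaches ISG15 in the mouse, was at -1.06 on its brighter probe and at -0.02 on the other, and Ucp3, a mitochondrial carrier of muscle and brown fat, was at -0.44 and 0.39.

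**Figure D2:**
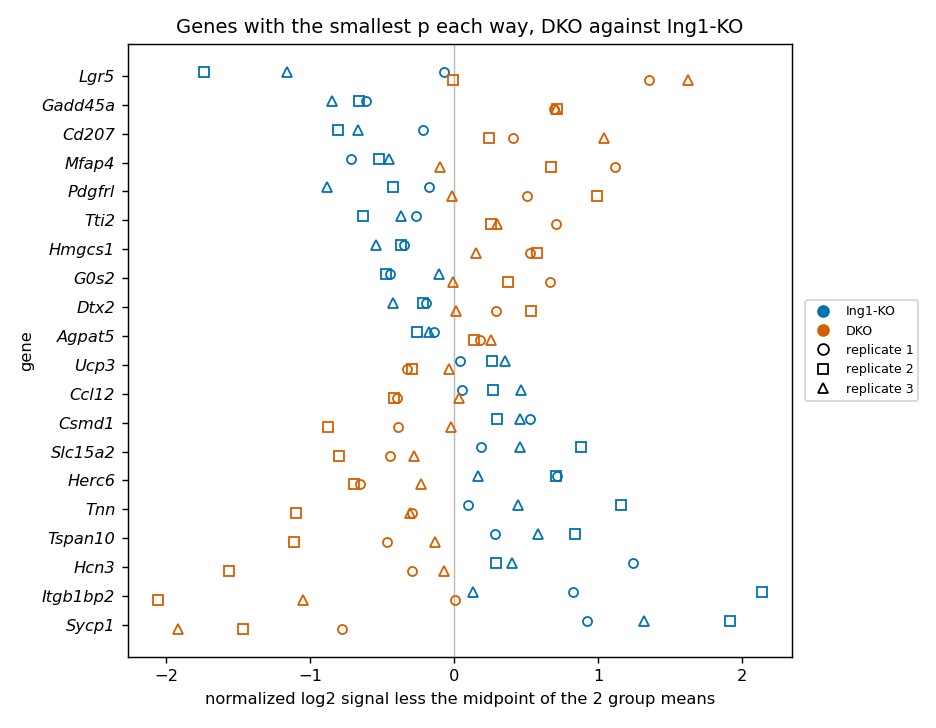
Normalized log2 signal of the 10 named genes with the smallest p in each direction, as the distance of each array from the midpoint of the 2 group means, with Ing1-KO in blue, DKO in orange and the replicate as the shape. The groups do not overlap in any of the 20 genes, as in 2797 of the 31453 features tested, and only Gadd45a, whose DKO points coincide, passed the threshold.

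Gene lists for fat, for the known partners of Gadd45a and Ing1 and for other cell types were then read as counts and medians, with no test. A list's level on an array is the mean over its members of the deviation from their mean over the 12 arrays. Apart from Gadd45a no member of the 35 lists passed the threshold. Whether a list as a whole rose or fell was not tested, and the values describe these 6 arrays. The median difference of all features was 0.0097, with 51.8% above 0. The list medians were above 0 in 22 lists and below 0 in 13, and in 9 lists the levels of the 3 DKO arrays and the 3 Ing1-KO arrays did not overlap. In bulk fat, fewer cells of a type and less RNA per cell cannot be told apart.

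The lists of brown and beige fat, fatty acid oxidation and oxidative phosphorylation had the highest medians of the 35. Of 27 measured genes of oxidative phosphorylation, which encode subunits of the respiratory chain and ATP synthase, all 27 had a positive difference, between 0.20 and 0.44, with a median of 0.35. In 22 of them the groups did not overlap and 6 were at an unadjusted p under 0.05, beside 5.14% and 1.43% of all features in that direction. Sdha, a subunit of succinate dehydrogenase, gave 14.91, 14.99 and 15.13 on the Ing1-KO arrays and 15.54, 15.32 and 15.27 on the DKO arrays (0.37 ± 0.14). Ndufa9 of complex I gave 13.24, 13.50 and 13.54 against 14.08, 13.78 and 13.75 (0.44 ± 0.18). In both genes the groups did not overlap and the gap was widest on slide 1. The list as a whole differed by 0.67 on slide 1, against 0.25 and 0.13 on the others. Without the 2 arrays high in muscle, both from slide 1, the median was 0.21 and all 27 stayed above 0, but 0 were at an unadjusted p under 0.05, with fewer arrays in the fit, and with array column as a block 1 was.

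Of 23 genes of fatty acid oxidation, 22 were positive with a median of 0.39, in 16 the groups did not overlap (5.14% of all features), and 8 were at an unadjusted p under 0.05 (1.43% of all features). Acadm, the medium-chain dehydrogenase of β-oxidation, gave 15.45, 15.61 and 15.47 against 16.23, 16.17 and 15.76 (0.54 ± 0.19). Acadl, its long-chain relative, gave 13.38, 13.52 and 13.51 against 13.83, 14.04 and 13.80 (0.42 ± 0.14), with a clear gap. Acadvl, which acts on very long chains, and Hadh, a later enzyme of the cycle, differed by 0.58 ± 0.21 and 0.45 ± 0.16, also without overlap. The list differed by 0.63, 0.36 and 0.16 on the 3 slides, and its median was 0.29 without the arrays high in muscle, with 0 at an unadjusted p under 0.05. With array column as a block 1 was.

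Of 22 markers of brown and beige adipocytes, the heat-producing fat cells, 21 were positive with a median of 0.45 and none was called, and in 10 the groups did not overlap, beside 5.14% of all features. Ucp1, the uncoupling protein that makes heat, gave 12.71, 13.35 and 13.46 on the Ing1-KO arrays and 15.68, 14.06 and 14.61 on the DKO arrays. The difference of 1.61 ± 0.78 (adjusted p = 0.948) was set largely by slide 1, at 2.97 against 0.71 and 1.15, and Ucp1 varied as widely within WT, with an SD of 1.21. Cox7a1 and Cox8b, cytochrome oxidase subunits of brown fat and muscle, differed by 1.21 ± 0.54 and 0.85 ± 0.38, and Tbx1, a factor linked to beige fat, by 0.58 ± 0.20. The part of muscle RNA in these values was not tested. The list's median was 0.34 without the 2 arrays high in muscle.

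Genes of the white adipocyte itself lay slightly higher. All 25 markers were positive, between 0.04 and 0.56, with a median of 0.24. In 6 of them the groups did not overlap, beside 5.14% of all features in that direction. The list's level on DKO replicate 3, 0.09, however lay within the range of the Ing1-KO arrays, 0.03 to 0.24. Pparg, the master regulator of adipocytes, gave 14.47, 14.37 and 14.43 against 15.01, 15.26 and 14.43, so that DKO replicate 3 was at the Ing1-KO level. Lep, which encodes leptin, gave 11.49, 11.61 and 11.96 against 12.46, 12.55 and 11.72, with the same array low. Cd36, a fatty acid transporter, and Lpl, which frees fatty acids from lipoproteins, differed by 0.34 ± 0.18 and 0.25 ± 0.16. The median ranged from 0.14 without DKO replicate 1 to 0.35 without DKO replicate 3.

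The 14 adipokines measured had a median of 0.27 with 12 positive, and of the hormones and factors among them Retn (resistin), Rarres2 (chemerin) and Angptl4, an inhibitor of lipoprotein lipase, differed by 0.37, 0.34 and 0.44. Without DKO replicate 1 the median was 0.13. Lipolysis and lipid droplet genes had a median of 0.28 with 20 of 22 positive, and of 0.18 without DKO replicate 1. Cidea, a droplet fusion protein, gave 15.32, 16.73 and 16.73 against 17.12, 17.17 and 16.89, so that its difference of 0.80 ± 0.40 lay mostly in a low Ing1-KO replicate 1. Plin5, a droplet coat of oxidative cells, followed at 0.64 ± 0.32 and Hilpda, an inhibitor of the same lipase as G0s2, at 0.32 ± 0.13.

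Of 22 genes of fatty acid and triglyceride synthesis 21 were positive, with a median of 0.21. At an unadjusted p under 0.05 stood 0, beside 3.51% of all features in either direction. Mlxipl, which encodes the carbohydrate-response factor ChREBP, was at 0.48 ± 0.24 on its brighter probe and at -0.12 on the other. Scd2, a desaturase, Thrsp, a lipogenic regulator, and Lpin1, a phosphatidate phosphatase, differed by 0.44, 0.34 and 0.29. Slide 1 carried this list as well, at 0.57 against 0.09 and -0.03, and the median was 0.07, with 14 of 22 positive, without the 2 arrays high in muscle. In the cholesterol list 18 of 20 were positive and the median was 0.32. At an unadjusted p under 0.05 stood 4, all higher, beside 1.43% of all features in that direction. Besides Hmgcs1 these included Sqle, the squalene epoxidase, at 0.47 ± 0.21, and Hsd17b7, a late enzyme of the pathway, at 0.39 ± 0.16. The list's level was nearly the same on the 3 DKO arrays, at 0.26, 0.29 and 0.27, and spread from -0.29 to 0.23 on the Ing1-KO arrays, so that its differences of 0.55, 0.31 and 0.04 on the slides came from the latter. Without the 2 arrays high in muscle its median was 0.17, and 2 were at an unadjusted p under 0.05. In that fit 907 of the 31453 features stood under 0.05, in either direction.

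Of 22 genes of insulin signalling and glucose uptake, 15 were positive with a median of 0.17. The members with the smallest p serve glucose trapping and glycogen. Hk2, the insulin-regulated hexokinase, gave 11.93, 12.05 and 12.25 against 12.65, 12.52 and 12.65 (0.53 ± 0.16), without overlap. Ppp1r3c, a glycogen-targeting phosphatase subunit, gave 10.67, 10.98 and 10.85 against 11.17, 11.49 and 11.41 (0.52 ± 0.20), also without overlap. Gys1, glycogen synthase, differed by 0.45 ± 0.19, and Pik3r1, the regulatory subunit of PI3 kinase, by 0.51 ± 0.28, each with DKO replicate 3 inside the Ing1-KO range. The list's median was 0.10 without DKO replicate 1 and 0.29 without DKO replicate 3.

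Among the 7 C/EBP factors, 5 were positive with a median of 0.17, and none passed. The median was 0.039 without DKO replicate 2 and 0.33 without DKO replicate 3. Ddit3, which encodes the stress factor CHOP, gave 9.56, 9.68 and 9.75 against 9.92, 10.07 and 9.90 (0.30 ± 0.11). Cebpb, an early driver of adipogenesis, gave 12.63, 12.81 and 13.06 against 13.26, 13.35 and 13.01 (0.37 ± 0.24). Cebpd, its early partner, lay the other way, at 12.68, 12.42 and 12.80 against 12.56, 12.31 and 12.28 (-0.25 ± 0.13). Ddit3 and Cebpg, the dimer partner without an activation domain, at 0.17 ± 0.10, were the 2 of 7 that kept the groups apart. Of all features 5.14% did so in that direction. Textbook targets of C/EBP, most of which are also adipocyte markers, had a median of 0.25 with 23 of 25 positive. Of these 1, Lep, was at an unadjusted p under 0.05, beside 1.43% of all features in that direction. That median was 0.12 without DKO replicate 1 and 0.40 without DKO replicate 3. Ppargc1a, a coactivator of mitochondrial genes, was at 0.43 ± 0.26.

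Genes closer to the known biochemistry of Gadd45a stood near 0. The 26 genes of DNA methylation and demethylation had a median of -0.026 with 12 positive. Uhrf1, which carries maintenance methylation through replication, gave 9.77, 10.38 and 10.19 against 9.53, 9.19 and 10.11 (-0.50 ± 0.21), with DKO replicate 2, the array low in lymphocyte transcripts, lowest. The 20 kinases and repair factors that bind or act with Gadd45 proteins had a median of -0.035 with 8 positive. Of these 20, 0 were at an unadjusted p under 0.05, beside 3.51% of all features in either direction. Their widest difference was that of Ccnb1, cyclin B1, at -0.48 ± 0.29, beside Cdk1, the mitotic kinase that Gadd45a restrains, at -0.44 ± 0.23, Aurka, a mitotic kinase, at -0.26 ± 0.17, and Map2k6, a p38 activator, at 0.41 ± 0.20. The 23 targets of p53, of which Gadd45a itself is a classic example, had a median of 0.016 with 12 positive, which was -0.020 without DKO replicate 3. Pmaip1, which encodes the death factor NOXA, was at -0.58 ± 0.23, Mdm2, the ubiquitin ligase of p53, at -0.20 ± 0.11, Plk3, a stress kinase, at -0.20 ± 0.14, and Phlda3, an AKT inhibitor, at 0.44 ± 0.30. Immediate early genes had no settled direction: the median was 0.040 with 11 of 19 positive, but below 0 when any 1 of the compared arrays other than DKO replicate 3 was left out, down to -0.16 with 5 positive without DKO replicate 2. In that list 0 members were at an unadjusted p under 0.05, beside 3.51% of all features in either direction. Junb, Egr2 and Ier2 were at -0.42, -0.35 and -0.37 and Dusp1 at 0.28.

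In the senescence list 7 of 20 were positive, with a median of -0.20, and the levels of the groups did not overlap, at -0.05, -0.19 and -0.08 in Ing1-KO and -0.29, -0.39 and -0.26 in DKO. Cxcl1, a neutrophil chemokine, gave 5.56, 5.79 and 5.92 against 4.99, 5.51 and 5.33 (-0.48 ± 0.21). Ccl5, a chemokine of T cells, was at -0.67 ± 0.30 and Lmnb1, a lamin lost in senescent cells, at -0.51 ± 0.25, while Cdkn2b, the cell cycle inhibitor p15, was at 0.41 ± 0.21. The differences within slides were close, at -0.23, -0.20 and -0.18. The median was -0.13 without Ing1-KO replicate 1 and -0.10 without the 2 arrays high in muscle.

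The clock genes split. Of 19, 7 were positive and the median was -0.13, but 6 were at an unadjusted p under 0.05, 4 higher and 2 lower, beside 1.43% and 2.08% of all features. Without the 2 arrays high in muscle 1 was higher and 0 lower, and the median ran from -0.029 without Ing1-KO replicate 3 to -0.28 without DKO replicate 3. Higher stood Nfil3, a repressor of evening output, at 9.06, 9.37 and 9.55 against 9.85, 10.19 and 9.59 (0.55 ± 0.18), and the positive limb, with Arntl at 9.21, 9.26 and 9.23 against 9.65, 10.10 and 9.53 (0.53 ± 0.20). Its partners Clock and Npas2 were at 0.54 and 1.26. Lower stood Per2, a repressor of that limb, at 8.17, 8.47 and 8.81 against 7.22, 7.37 and 8.52 (-0.78 ± 0.32), and the output gene Dbp at -0.57. In Per2 and Nfil3 the third slide showed the smallest difference. The hour at which tissue was taken is not in the labels, and its part in these values was not tested.

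Genes of cell division lay lower in DKO on 2 of 3 slides. Of 23, 22 were negative with a median of -0.50, and 7 were at an unadjusted p under 0.05, beside 2.08% of all features in that direction. In none of the 23 did the groups not overlap, beside 3.75% of all features in that direction. Kif11, a motor of the mitotic spindle, gave 6.55, 7.12 and 6.67 against 5.86, 5.81 and 6.61 (-0.69 ± 0.23). Mcm2, a subunit of the replicative helicase, gave 9.56, 9.97 and 9.77 against 9.06, 8.87 and 9.75 (-0.54 ± 0.22). Cdc20, an activator of anaphase, and Cenpe, a kinetochore motor, were at -0.55 and -0.57. In each of them DKO replicate 3 matched the Ing1-KO arrays and DKO replicate 2 was the lowest. The list differed by -0.35, -1.39 and 0.06 on the slides, and its median was -0.30 without DKO replicate 2 and -0.82 without DKO replicate 3. At an unadjusted p under 0.05 were 3 without the 2 arrays high in muscle and 2 with array column as a block.

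Lymphocyte transcripts moved with the same array. All 20 T cell markers measured were negative, between -0.28 and -0.77, with a median of -0.53. Of them 0 were at an unadjusted p under 0.05, beside 2.08% of all features in that direction. In 0 did the groups not overlap, beside 3.75% of all features. For 20 genes counts of 0 are close to these shares. The list's level was -0.51, -1.36 and 0.02 on the DKO arrays and -0.40, 0.22 and -0.09 on the Ing1-KO arrays, so DKO replicate 2 alone lay far below the rest. Cd3e, a chain of the T cell receptor complex, gave 12.38, 13.12 and 12.71 against 12.44, 11.70 and 12.66. Cd28, a costimulatory receptor, gave 10.33, 10.99 and 10.55 against 10.15, 9.34 and 10.62, and Il7r, a survival receptor, 11.05, 11.68 and 11.51 against 10.66, 9.78 and 11.67. Without DKO replicate 2 the median was -0.14, with all 20 still negative. The B cell list behaved alike, with 1 of 17 positive and a median of -0.41 that was -0.06 without that array, and Cd79a, a chain of the B cell receptor, was at -0.57 ± 0.31. So did markers of lymph node stroma and follicles, with 0 of 10 positive and a median of -0.47 that was -0.10 without it, and with Ccl19, a chemokine of the T cell zone, at 12.60, 13.18 and 13.02 against 12.41, 11.51 and 13.11. Among antigen-presenting genes 3 of 18 were positive with a median of -0.37 that was -0.06 without it. H2-Aa and H2-DMa of the class II pathway were at -0.44 and -0.42, and Cd207 stood out at the other end. Natural killer and cytotoxic genes had a median of -0.32 with 5 of 17 positive, and -0.10 without DKO replicate 2, and Xcl1, Nkg7 and Fasl were at -0.49, -0.33 and -0.37.

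Macrophage markers did not depend on that array. Of 21, 2 were positive with a median of -0.17, which was -0.21 without DKO replicate 2, and the levels of the groups did not overlap, at 0.03, -0.20 and -0.08 in Ing1-KO and -0.29, -0.21 and -0.35 in DKO. The gap between Ing1-KO replicate 2 and DKO replicate 2 was small. Lyz2, the lysozyme of myeloid cells, gave 12.04, 12.29 and 12.28 against 11.54, 11.65 and 12.19 (-0.41 ± 0.22), and Itgax, the integrin CD11c, gave 10.57, 10.85 and 10.85 against 10.11, 9.90 and 10.83 (-0.47 ± 0.23). Adgre1, which encodes the common surface marker of mouse macrophages, was at -0.02 ± 0.28. The list differed by -0.33, -0.01 and -0.27 on the slides. Its median was -0.10 without DKO replicate 3, with 5 of 21 positive. Without Ing1-KO replicate 2 or DKO replicate 2, 1 of 21 or 0 of 21 were positive, and without Ing1-KO replicate 1, 6 of 21. Without the 2 arrays high in muscle the median was -0.13 with 7 of 21 positive. Neutrophil and mast cell markers were mixed, with 10 of 17 positive and a median of 0.08. It was -0.14 with 4 positive without DKO replicate 2 and 0.35 with 14 positive without the 2 arrays high in muscle. Ngp and Camp, granule genes of immature neutrophils, were at -1.22 ± 0.89 and -0.60 ± 0.63.

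Interferon-stimulated genes were lower in DKO on slides 1 and 2. Of 22, 20 were negative with a median of -0.43, and 8 were at an unadjusted p under 0.05, beside 2.08% of all features in that direction. Isg15, a ubiquitin-like modifier, gave 13.27, 13.14 and 12.14 on the Ing1-KO arrays and 12.18, 11.94 and 12.56 on the DKO arrays (-0.62 ± 0.26). Oas2, a sensor of double-stranded RNA, gave 12.06, 11.99 and 10.86 against 10.38, 10.73 and 11.23 (-0.86 ± 0.32), and Usp18, which removes ISG15, gave 11.07, 11.01 and 10.17 against 10.25, 9.94 and 10.41 (-0.55 ± 0.23). In these 3 genes the arrays of slide 3 ran the other way and overlapped the opposite group. The list differed by -0.66, -0.53 and 0.10 on the slides, and its median went from -0.65 without Ing1-KO replicate 3 to -0.26 without Ing1-KO replicate 1. Without the 2 arrays high in muscle it was -0.23, and 0 were at an unadjusted p under 0.05.

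Structural cells of the fat pad showed little. Endothelial markers had a median of 0.14 with 16 of 20 positive, which was -0.07 with 4 of 20 positive without DKO replicate 2, and Pecam1, the general endothelial marker, was at -0.06 ± 0.19. Pericyte and smooth muscle markers had a median of 0.07 and matrix genes one of 0.05, and both turned below 0 without that array, to -0.06 and -0.21. Without the 2 arrays high in muscle the medians of these 3 lists were 0.30, 0.14 and 0.27. Lox, which cross-links collagen, was the matrix gene with the smallest p, at 8.83, 8.21 and 8.06 against 9.36, 9.27 and 8.44 (0.66 ± 0.26), while the collagens Col4a1, Col5a1 and Col5a2 were at 0.22, 0.20 and 0.36. Adipocyte progenitor genes had a median of 0.08 that was -0.06 without DKO replicate 2 and 0.28 without Ing1-KO replicate 1. Both members whose groups did not overlap lay lower, beside 3.75% of all features in that direction. They were Gata3, which holds back adipogenesis, at 9.92, 10.12 and 9.83 against 9.48, 9.43 and 9.75 (-0.40 ± 0.16) and Dpp4, a marker of early progenitors, at -0.36 ± 0.20. Of 11 mesothelial markers 6 were measured, with a median of 0.32 and DKO replicate 2 highest. The median ran from 0.13 without Ing1-KO replicate 2 to 0.79 without Ing1-KO replicate 1, and was 0.93 without the 2 arrays high in muscle. Krt18 and Krt19, epithelial keratins, were at 1.51 ± 0.83 and 0.91 ± 0.51. Of 21 markers of the epididymis, which lies against this fat pad, 4 were measured, with a median of 0.06 that was -0.062 without DKO replicate 2. Haemoglobin and other red cell transcripts had a median of 0.21 with 6 of 7 positive, which was 0.044 without DKO replicate 2. Skeletal muscle transcripts had a median of -0.54 with 5 of 22 positive, which was 0.41 with 17 of 22 positive without Ing1-KO replicate 1, -1.05 without DKO replicate 1, -0.055 without DKO replicate 2 and -0.26 without both arrays high in muscle. The level of that list was 2.59 on Ing1-KO replicate 1, 1.72 on DKO replicate 1 and between -0.83 and -0.66 on the other 4.

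**Figure D3:**
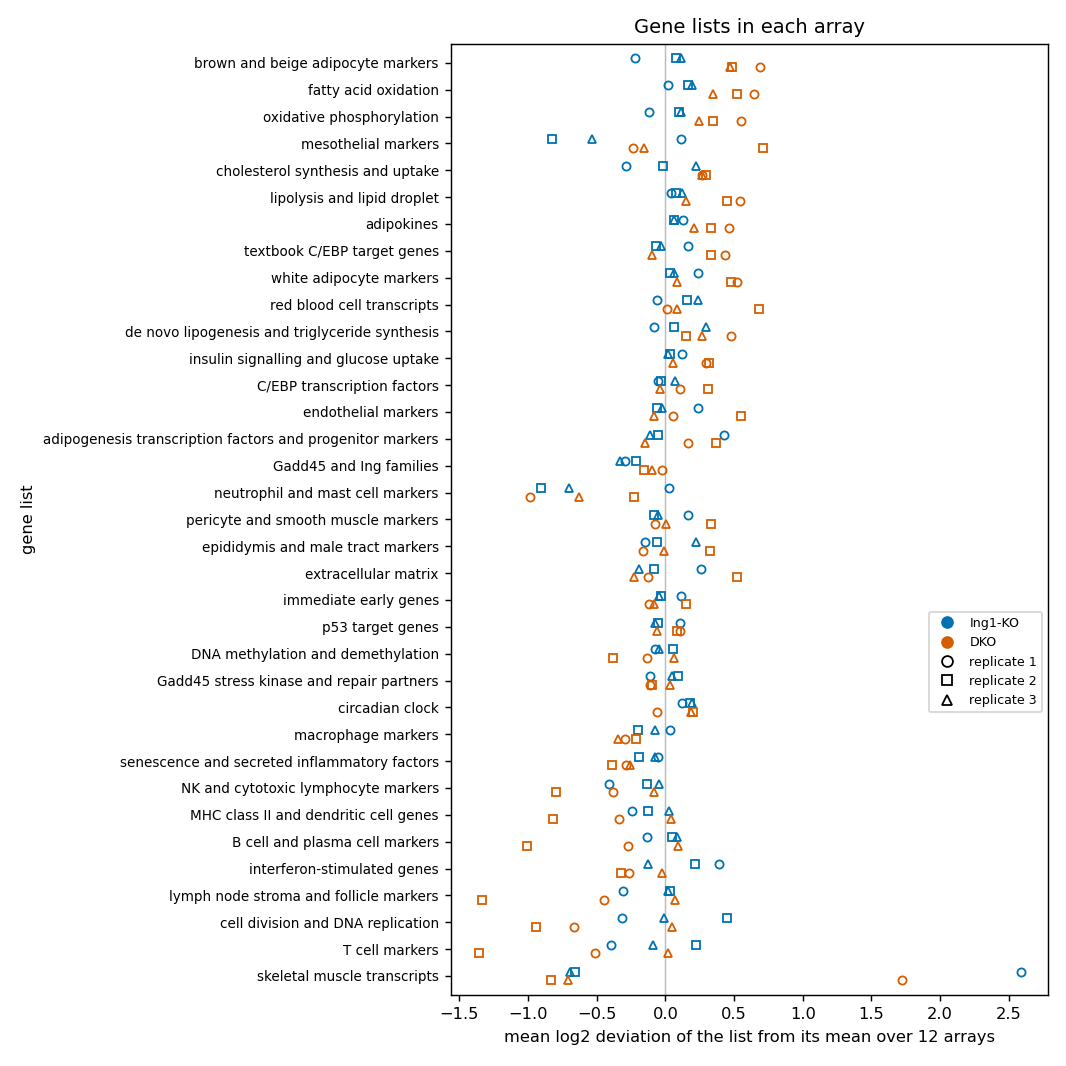
Level of each of the 35 gene lists on each array, as the mean log2 deviation of its members from their mean over the 12 arrays, ordered by the median difference between DKO (orange) and Ing1-KO (blue), with the replicate as the shape. The lists of brown fat, fatty acid oxidation and oxidative phosphorylation are at the top with the groups apart, and the lymphocyte lists near the bottom are set by DKO replicate 2 (orange square).

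The same loss of Gadd45a in the presence of Ing1, Gadd45a-KO less WT, stood beside these values with no array in common, though on the same slides. There 0 features passed (limma), with 739 at an unadjusted p under 0.05 (2.35%), of which 1.54% of all features were higher in Gadd45a-KO and 0.808% lower. The test of the difference between both effects called 0 features, with 1866 at an unadjusted p under 0.05 (5.93%), of which 2.31% were positive and 3.63% negative, and a smallest adjusted p of 0.633, so no gene was shown to respond in another way with and without Ing1. For Gadd45a the difference between the effects was 0.75 ± 0.19, with an adjusted p of 0.728.

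The list medians of both comparisons mostly had opposite signs, in 29 of the 35 lists. This was not particular to the lists: of all 31453 features only 33.3% had the same sign in both comparisons. Some lists also share members, so the 35 are not separate counts. Oxidative phosphorylation was at 0.35 without Ing1 and at -0.15 with it, fatty acid oxidation at 0.39 and -0.15, and white adipocyte markers at 0.24 and -0.25. Cell division genes were at -0.50 and 0.29, macrophage markers at -0.17 and 0.31, T cell markers at -0.53 and 0.20, and lipogenesis at 0.21 and -0.36. In these 4 lists of fat metabolism the median thus lay higher in DKO than in Ing1-KO and lower in Gadd45a-KO than in WT, and in the cell division, macrophage and T cell lists the reverse. The slides did not all share this. On slide 1 Gadd45a-KO less WT was positive for oxidative phosphorylation (0.19), fatty acid oxidation (0.18), white adipocyte markers (0.06) and lipogenesis (0.24), and negative for macrophage markers (-0.17). In all 4 fat lists the difference was widest on slide 2, at -0.53, -0.46, -0.70 and -0.76. Across the 31453 features, which share arrays and slides and are not independent, the differences of both comparisons had a Pearson r of -0.30 and a Spearman rho of -0.41. Single arrays weighed on this: r was -0.14 without WT replicate 2, -0.15 without Gadd45a-KO replicate 3 and -0.18 without DKO replicate 2 or without Ing1-KO replicate 1.

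**Figure D4:**
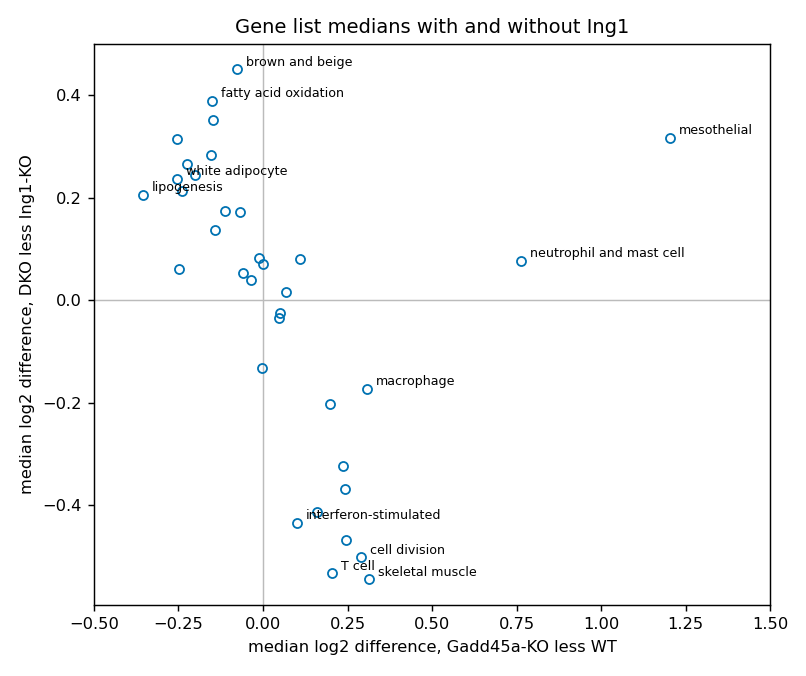
Median log2 difference of each of the 35 gene lists, in DKO less Ing1-KO (vertical axis) against Gadd45a-KO less WT (horizontal axis), 1 circle per list. Of the 35 lists 29 lie in the quadrants of opposite sign, with lists of fat genes at the upper left and lists of immune and dividing-cell genes at the lower right. Of all features tested only 33.3% had the same sign in both comparisons.

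The 5 named genes with the smallest p in the test of the difference between effects were Ccl12, Pdgfrl, Epb41l3, Csmd1 and Tspan10, with adjusted p of 0.633 for Ccl12 and 0.728 for the others. Ccl12 gave 9.80, 9.78 and 9.90 on the WT arrays and 10.87, 10.67 and 10.64 on the Gadd45a-KO arrays, so that it was 0.90 higher there and 0.52 lower in DKO than in Ing1-KO, a difference between effects of -1.42 ± 0.21. Pdgfrl gave 8.70, 9.10 and 8.58 in WT and 8.04, 7.74 and 7.72 in Gadd45a-KO, and the difference between its effects was 1.94 ± 0.36. In both genes the groups of each comparison did not overlap, though the DKO arrays of Pdgfrl spread widely, from 8.84 to 9.84. Epb41l3, a membrane skeleton protein, was 0.51 higher in Gadd45a-KO than in WT and differed by -0.26 ± 0.10 between DKO and Ing1-KO. Cd207 instead ran the same way in both comparisons, with 6.82, 6.59 and 6.82 in WT and 7.97, 8.76 and 8.70 in Gadd45a-KO beside 7.10, 6.51 and 6.65 in Ing1-KO and 7.72, 7.56 and 8.36 in DKO. Every array labelled as lacking Gadd45a was thus above every array labelled as carrying it.

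Cd207 lies on chromosome 6, 16.6 Mb from Gadd45a. A knockout allele can carry neighbouring sequence of the strain in which it was made, so genes within 20 Mb of each targeted gene were counted, with names and positions from GRCm38.p6. Of 227 genes tested near Gadd45a, Gadd45a aside, 0 were called and 18 were at an unadjusted p under 0.05 (7.93%), 10 higher and 8 lower, against 27 of 600 (4.5%) on the rest of the chromosome and 3.78% of all named genes. Besides Cd207 and Herc6 the smallest p belonged to Suclg1, a subunit of the citric acid cycle enzyme succinyl-CoA ligase, at 13.84, 14.25 and 14.23 against 14.87, 15.03 and 14.70 (0.76 ± 0.22). They were followed by Hk2 and by Hoxa10, a positional identity factor, at 8.31, 7.91 and 7.95 against 9.29, 9.08 and 8.22 (0.81 ± 0.25). Suclg1 had a wide gap, and Hoxa10 had DKO replicate 3 inside the Ing1-KO range.

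Near Ing1, which both groups lack, 11 of 162 genes (6.79%) were at an unadjusted p under 0.05, 7 higher and 4 lower, against 23 of 656 (3.51%) on the rest of chromosome 8, and 0 were called. Among them were Agpat5, 7.29 Mb away, Csmd1 at 4.34 Mb and Tti2 at 19.6 Mb, with Hgsnat, a lysosomal acetyltransferase, at 11.38, 11.00 and 11.08 against 11.74, 11.64 and 11.39 (0.44 ± 0.13). Kcnu1, a potassium channel of sperm, was not well above background on any Ing1-KO array and was above it on all 3 DKO arrays, at least 1.45-fold higher. Gm15056, chosen here after its values were seen, had the smallest p of all features after Gadd45a, and lies 9.34 Mb from Ing1. It gave 7.90, 9.28 and 8.67 on the Ing1-KO arrays and 6.37, 5.53 and 6.64 on the DKO arrays, a difference of -2.44 ± 0.37 with an adjusted p of 0.394. Its means in WT and Gadd45a-KO were 6.91 and 7.13, below the Ing1-KO mean of 8.62 and above the DKO mean of 6.18. The difference thus lies more in bright Ing1-KO arrays than in dim DKO arrays. Whether the groups differ in flanking sequence was not tested, since the arrays hold no genotypes.

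**Figure D5:**
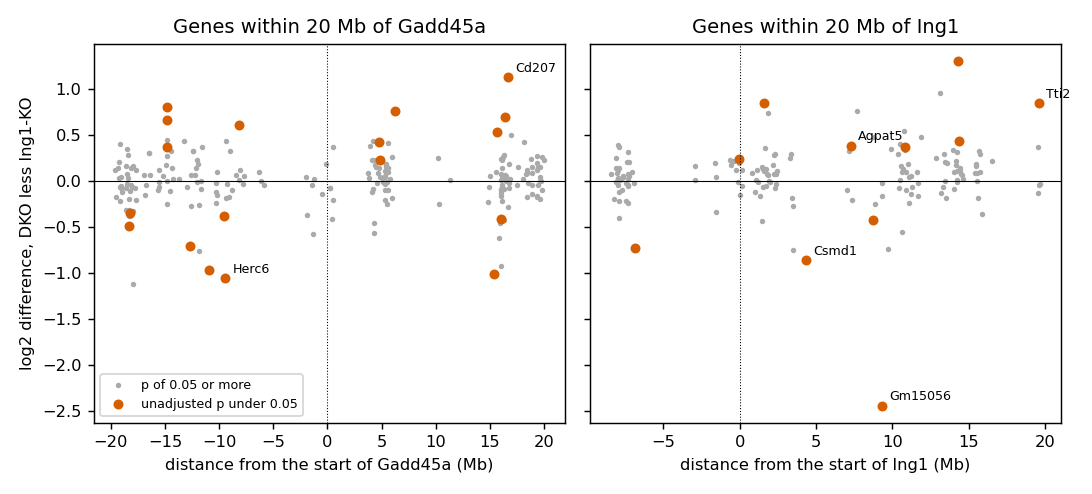
Log2 difference, DKO less Ing1-KO, of each gene within 20 Mb of Gadd45a on chromosome 6 (left) and of Ing1 on chromosome 8 (right), against its distance from the start of that gene in Mb. Orange points are the 18 and 11 genes at an unadjusted p under 0.05, which lie both above and below 0, and Gm15056 is the lowest at -2.44.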

How the data were processed

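Each of the 12 arrays carried Cy3-labelled RNA in a single colour. The deposited scanner files hold intensity values, which the authors obtained with Feature Extraction 10.7.3.1 and which were background-subtracted within the array, per the file headers. The authors' deposited table holds log2 values of 38927 probes made with limma 3.26.9, per the submitters' processing notes, and was used as an alternative. The scanner values are the main source: control spots and spots marked as outliers were left out, the log2 processed signal was averaged per probe and each array was shifted to the same 75th percentile. Of 55681 probes, 94 were dropped for lack of a value, 27509 were named through RefSeq accessions for 20887 genes (GRCm38.p6), 1641 accessions were not matched, and 26531 probes carry none. A filter kept probes that were well above background on 3 or more of the 12 arrays. The brightest probe stood for each gene, which left 31453 features, 15954 of them named.

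The model was run in limma 3.58.1 (R 4.3.3) with an intensity trend and robust moderation, and has 4 genotype means on 12 arrays and 8 residual degrees of freedom. Tests are two-sided. The fit was tested on simulated data. The comparison, the gene lists and the naming rule were chosen with earlier results of these data known. Named are both targeted genes and their families, the 10 genes with the smallest p each way, up to 4 members per list with the smallest p, 5 for the difference between effects and near each targeted gene, and marker genes, passing over predicted genes. A few list members at an unadjusted p under 0.05, and Gm15056, were named after their values were seen. Replicate numbers equal slides and scans. The deviations of same-numbered Ing1-KO and DKO arrays correlated at 0.27, -0.11 and 0.28. So few arrays cannot settle whether the numbers pair the samples beyond the slide, and a replicate block is among the alternatives. Alternatives were other scalings, background correction, filters, blocks and leaving out arrays. Left out after the data were seen were both arrays high in muscle, and slide with array row was added as a block. Some members of the lists are not reported here.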

Additional observations from a re-analysis of the deposited data

Results flagged for a closer look

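In 3 gene lists the difference had 1 sign on all 3 slides in DKO less Ing1-KO and the other sign on all 3 slides in Gadd45a-KO less WT. The difference between both effects was not tested for a list, and the slides are shared by both comparisons. Adipokines had a median of 0.27 in DKO less Ing1-KO, with slide differences of 0.34, 0.27 and 0.14, against -0.04, -0.52 and -0.10 with Ing1 present. The stress kinase and repair partners of Gadd45 had a median of -0.035, with slide differences of -0.0060, -0.19 and -0.016 against 0.04, 0.06 and 0.07. Skeletal muscle transcripts had a median of -0.54, with slide differences of -0.87, -0.17 and -0.01 against 1.15, 0.06 and 0.18, and slide 1 holds both arrays high in muscle among those compared.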

How the results depend on the processing

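Over 26 alternatives the count of genes past the threshold stayed at 1 except in these cases. It was 0 with only the arrays compared, with array column as a block, without the 2 arrays high in muscle and with a replicate block plus array row, and between 0 and 3 when 1 array was left out. Without DKO replicate 1 it was 3 (Gadd45a and 2 unnamed probes) and without DKO replicate 3 it was 2 (Gadd45a, and Serpinb6b lower). The replicate block alone gave 1, with 1733 features at an unadjusted p under 0.05, and changed no call. Over all alternatives that number ran from 497, without DKO replicate 2, to 4141, without DKO replicate 3, against 1103. The difference between effects called 0 features under every alternative in which it was fitted, with 929 to 4370 at an unadjusted p under 0.05. The Gadd45a difference stayed between 1.28 and 1.46, with adjusted p from 0.000827 to 0.412. Of 670 values of 26 genes 663 kept their direction and side of the threshold, 7 lost the call of Gadd45a and 0 turned. Most of these genes were chosen for a small p, and only Gadd45a had a call to lose. List medians moved by less than the spread between arrays in 900 of 910 cases, and 10 of the 35 lists changed sign under at least 1 alternative. These counts are partly fixed in advance. Another variance estimate, blocks by replicate or row, and leaving out WT or Gadd45a-KO arrays cannot change DKO less Ing1-KO. The median of all features shifted by less than 0.1 under each scaling. The cause was not tested. Probes not above background on any array of a group, such as Sycp1 and Kcnu1, give bounds only.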

Other observations

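Probes without a gene name also held wide differences, chosen after their values were seen. Probe A_55_P2018865 gave 5.03, 6.66 and 6.39 on the Ing1-KO arrays and 2.98, 2.34 and 3.37 on the DKO arrays, and was not well above background on any DKO array, so it was at least 3.67-fold lower (limma, adjusted p = 0.401). Its means in WT and Gadd45a-KO were 2.80 and 2.89, so that the Ing1-KO arrays alone were bright, as with Sycp1. Probe A_55_P2004208 gave 6.33, 8.72 and 7.48 against 4.04, 3.49 and 3.56, at least 9.78-fold lower (adjusted p = 0.485), and was also low in WT at 2.81 ± 0.46 (SD, n = 3). Probe A_55_P2187829 ran the same way in both comparisons, with 4.62, 4.82 and 4.75 in WT, 5.79, 5.64 and 5.74 in Gadd45a-KO, 4.87, 4.81 and 5.52 in Ing1-KO and 6.06, 6.28 and 6.06 in DKO. Like Cd207 it was brighter on every array labelled as lacking Gadd45a than on every array labelled as carrying it, and its difference of 1.07 ± 0.21 did not pass (adjusted p = 0.948).

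The differences within the 3 slides had little in common over all features. Their correlations across the 31453 features, which are not independent, were 0.10 between slides 1 and 2, -0.08 between slides 1 and 3 and 0.01 between slides 2 and 3.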
